A study of Mus musculus with 12 samples.

Results

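The effect of the Setd2 knockout that liver and liver tumors have in common was measured here over all 12 libraries of the series. Libraries were chosen by their titles, 6 with Setd2-cKO against 6 with Setd2-WT, and the tissue was kept as a covariate. The 4 groups held 3 libraries each: normal liver of Setd2 knockout (KO) mice, normal liver of Setd2 wild type (WT) mice, liver tumors of KO mice and liver tumors of WT mice. Normal liver came from male mice of 8 months that had received no diethylnitrosamine (DEN), a carcinogen that liver enzymes activate. Tumors came from male mice that had received 1 injection of DEN at 25 mg/kg at the age of 2 weeks and were kept for 8 months. The labels do not spell out cKO, name a promoter or the cells that lost the gene, or say which exons were removed. They also do not say that each library is an animal of its own, so the p-values below measure the spread between these samples, which may in part be technical. Tissue and carcinogen go together in this design, and their effects cannot be told apart.

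SETD2 is the methyltransferase that places the third methyl group on lysine 36 of histone H3. It travels with elongating RNA polymerase II, so the mark lies over the bodies of transcribed genes, where it is read by proteins that act in splicing, in DNA repair and in the silencing of cryptic start sites. In the liver, hepatocytes make most of the proteins of the plasma, synthesize cholesterol and bile acids, and detoxify foreign compounds.

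Expression was given as FPKM, a measure of fragments normalised to transcript length and to the fragments mapped. Of 24553 entries in each table, 11671 reached 1 FPKM in at least 3 libraries and were tested. Sums over a library ran from 423498 to 719538 FPKM, and 10233 to 11620 entries of a library reached 1 FPKM. The KO tumors varied most, with a median SD of 0.31 on the log2 scale against 0.16 to 0.19 in the other groups. Effects are differences of log2(FPKM + 1), KO minus WT, with their SE. The common effect is the one that limma fitted with tissue as a covariate, and a gene was called when its p, adjusted by the Benjamini-Hochberg method over all 11671 entries, was below 0.05. An effect near 1 is close to a 2-fold change for well expressed genes and understates the change of weakly expressed ones. Because the fit averages the tissues, a call can rest mainly on 1 of them, and for that reason the effect in each tissue is given beside it.

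Setd2 itself (chr9:110532597-110618633, GRCm38) was lower in the KO libraries of both tissues. The WT livers had 4.84, 3.84 and 4.70 FPKM and the KO livers 1.66, 1.93 and 1.32. In tumors the values were 4.40, 3.61 and 4.07 for WT and 3.14, 2.18 and 1.90 for KO. No KO library reached the lowest WT library of its tissue, and KO tumor 1 came nearest. The common effect was -0.81 ± 0.13 (limma, adjusted p = 0.00856), made up of -1.05 in liver and -0.57 in tumors, and the interaction of 0.48 did not pass (adjusted p = 0.241). Any reads from exons that were not deleted, or from cells that kept the gene, would enter these values, and their part was not tested.

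The common effect was called for 953 of the 11671 entries (8.17%), 523 higher in KO (4.48%) and 430 lower (3.68%). After each library was rescaled to a common sum (TPM) the count was 628, 452 higher and 176 lower, and after quantile normalization it was 1000, 466 higher and 534 lower, so the balance of rises and falls depends on the scaling. It was 377 without WT liver 3, 416 without WT liver 1, 423 without KO liver 3, 452 without WT tumor 2, 493 without KO liver 2, 509 without WT tumor 3, 625 without KO liver 1 and 1774 without KO tumor 1, and 673 to 864 without any other library. Of the 953, 183 differed at least 2-fold on the scale of the fit, 111 upward and 72 downward. Every called gene had the same sign in both tissues, a property shared by 6789 of all tested entries (58.2%) and favoured by the fit itself. In 606 of the 953, or 63.6%, all KO libraries lay on 1 side of all WT libraries in liver and again, on the same side, in tumors. Over all tested entries 836 were separated in this way (7.16%), 439 with KO above (3.76%) and 397 with KO below (3.40%), while 292 were separated in opposite directions. In 629 called genes (66.0%) the larger of the effects in liver and tumor was at most 2 times the smaller, as it was, with the same sign, in 2773 of all tested entries (23.8%), and in 47 called genes it was more than 4 times. The fit favours like sizes as it does like signs, so these shares are a description. Liver had the larger effect in 475 called genes and tumor in 478. When each tissue was fitted on its own 6 libraries, 2113 genes were called in liver (18.1%), 1089 higher (9.33%) and 1024 lower (8.77%), and 9 in tumors (0.0771%), 4 higher (0.0343%) and 5 lower (0.0428%), totals that became 240 without WT liver 3 and 266 without KO tumor 3. These numbers depend on the fit: with the spread of all 12 libraries pooled, 1144 genes were called in liver and 1017 in tumors, and with a replicate block 153 and 0. Of the 953, 587 were called in liver alone or with tumor, 4 in tumors, 3 in both and 365 in neither.

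A stricter question is which genes passed in liver and in tumors each, judged by the larger of the p-values in the tissues. Idi1 and Krtcap3 passed, 2 of 11671 (0.0171%), and 0 when each tissue was fitted alone. An unadjusted p below 0.05 in both was reached by 631 entries, 596 of them among the 953. By adjusted p, the number that passed, 2 in the main fit, was 6 without KO tumor 1 and 2 or 3 without any other library. The number that passed depends on the power within each tissue, with 3 libraries of each genotype. It is no estimate of how many genes respond in both tissues. Across all tested entries the KO effects in liver and tumors had a Pearson correlation of 0.16 and a Spearman correlation of 0.20, a description over genes, which are not independent of each other. The plot of the effect in tumors against that in liver shows the called genes along the diagonal and the remaining entries as a cloud around the origin.

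**Figure D1:**
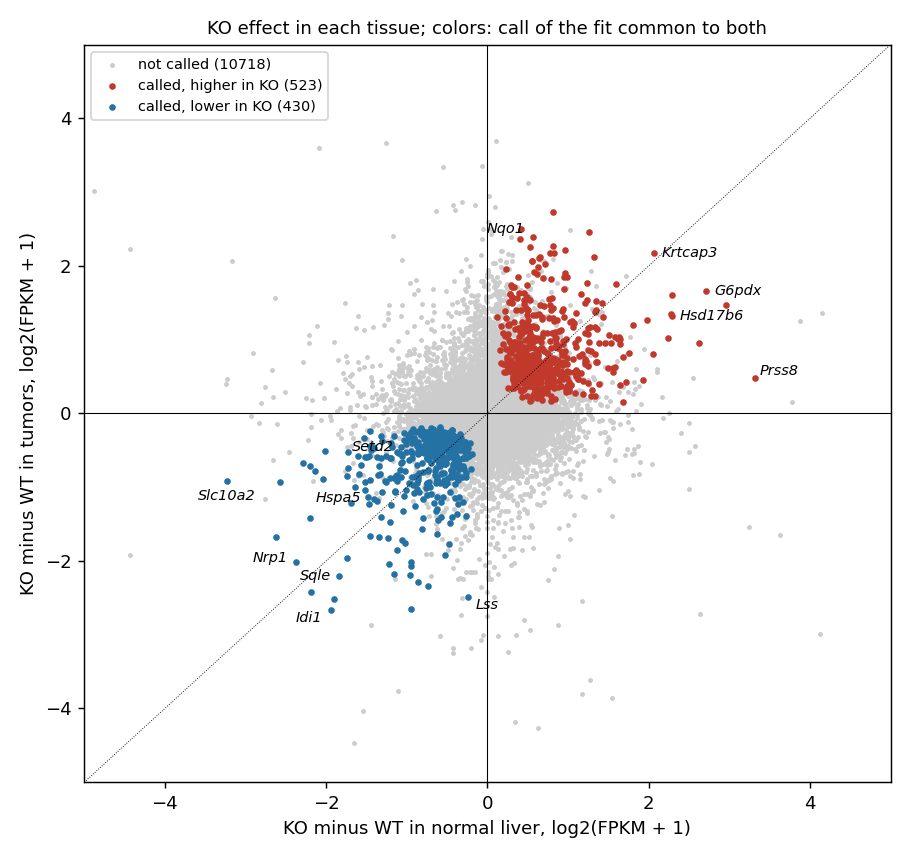
Each point is a tested entry, with the KO effect in normal liver on the x axis and the KO effect in tumors on the y axis, both as differences of log2(FPKM + 1). Coloured points are the 953 entries whose common effect was called, all of which lie in the quadrants where both tissues have the same sign, with Idi1 far down on the left and Hsd17b6 and G6pdx on the upper right.

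Many cholesterol synthesis genes were lower in the KO libraries. The pathway builds isoprenoid units from acetyl-CoA through mevalonate, joins them to squalene and closes and trims the sterol rings, and its genes are switched on together by the transcription factor SREBP2 when cells lack sterols. Of 21 members tested 13 fell (61.9%, beside 3.68% of all tested entries) and 0 rose. The median effect was -1.12 against 0.02 over all tested entries. In liver the median was -0.62 and in tumors -1.72, and the summed FPKM of the list overlapped between KO (1122 to 1900) and WT (1785 to 2232) in liver but not in tumors (471 to 823 against 1999 to 2205). Of the 13 genes, 9 were also separated in both tissues, beside 63.6% of all called genes. In fits that left out 1 library in turn 11 to 15 members fell. These are values of whole tissue, in which fewer hepatocytes and less RNA per hepatocyte cannot be told apart. The summed FPKM of 26 hepatocyte identity genes, those tested and listed above 0 in all 12 libraries, was 32864 to 40092 in KO liver, 37554 to 44232 in WT liver, 18221 to 32275 in KO tumors and 44543 to 54107 in WT tumors. It overlapped between genotypes in liver and was lower in all KO tumors, and its part in the result was not tested.

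The bases before the start sites of 3 of these genes are shown because most members of the list fell together. Sequence is from RefSeq on GRCm38.p6, 250 bases before the RefSeq start and in the direction of the gene. Gene positions given elsewhere are from GENCODE. By GENCODE, Idi1 (chr13:8885501-8892451) and Cyp51 (chr5:4081145-4104746) begin further upstream. Their marked matches therefore lie inside the GENCODE spans. Capitals mark matches to CCAAT, the box bound by NF-Y, on either strand (ATTGG is its reverse complement), and to TCACNCCAC, a sterol regulatory element, on either strand; no match of 1 motif overlapped the other.
Idi1 (chr13:8885356-8885605, + strand): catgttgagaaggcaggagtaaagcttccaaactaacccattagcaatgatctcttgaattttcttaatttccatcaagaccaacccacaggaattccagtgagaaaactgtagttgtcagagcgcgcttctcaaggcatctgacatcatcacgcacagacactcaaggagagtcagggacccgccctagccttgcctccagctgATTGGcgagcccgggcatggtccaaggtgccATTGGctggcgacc
Cyp51 (chr5:4104698-4104947, - strand): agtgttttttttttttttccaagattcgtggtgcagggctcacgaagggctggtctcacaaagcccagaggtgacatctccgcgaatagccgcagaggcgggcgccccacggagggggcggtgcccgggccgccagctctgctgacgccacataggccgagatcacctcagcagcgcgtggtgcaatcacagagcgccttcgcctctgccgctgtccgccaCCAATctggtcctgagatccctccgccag
Hmgcs1 (chr13:119690101-119690350, + strand): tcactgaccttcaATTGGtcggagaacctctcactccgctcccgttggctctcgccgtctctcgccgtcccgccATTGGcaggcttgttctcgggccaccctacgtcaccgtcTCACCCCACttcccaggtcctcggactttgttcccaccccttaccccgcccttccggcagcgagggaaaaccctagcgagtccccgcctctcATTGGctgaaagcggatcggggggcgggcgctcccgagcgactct
CCAAT stood in this window in 10 of the 10 called cholesterol genes with a RefSeq entry and in 4 of the 5 not called. A gene with several starts was counted when any of its windows matched. By promoter, CCAAT stood in 10 of 13 windows of the called genes (76.9%) and in 4 of 5 of those not called (80%). It stood in 37.5% of 27025 genes and in 33.8% of 32851 promoters of the same length. TCACNCCAC was found in 1 of the 10, Hmgcs1, where it begins 137 bases before the start, and in 1.22% of all genes and 1.05% of all promoters. A match is a description of the letters and does not show a bound site.

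Among the enzymes up to squalene, Idi1 (chr13:8885501-8892451), the isomerase that provides dimethylallyl diphosphate, had 29.4, 38.4 and 34.0 FPKM in WT livers and 10.3, 7.12 and 6.97 in KO livers. WT tumors had 22.5, 22.3 and 23.6 and KO tumors 2.95, 2.84 and 2.46, so that the groups were far apart in both tissues and the KO tumors were the lowest of all. The fall was -2.31 ± 0.15 (limma, adjusted p = 1.61e-05), with -1.95 in liver and -2.67 in tumors. Hmgcs1, the synthase of an early step, was separated in tumors (254, 185 and 182 in WT, 21.8, 62.3 and 23.5 in KO) but not in liver, where KO liver 3 had 148 FPKM and the WT livers 142, 198 and 138. Its common effect was -1.80 ± 0.38 (adjusted p = 0.0183). Mvk and Pmvk, the kinases that phosphorylate mevalonate, fell by 1.12 and 1.22, and Pmvk lost its call in 7 of the 12 fits without 1 library.

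Genes of the steps from squalene to cholesterol fell too. Sqle, the squalene epoxidase, had 53, 71.3 and 60.8 FPKM in WT livers and 19.4, 10.5 and 21.3 in KO livers, 75.4, 81.3 and 84.9 in WT tumors and 13.1, 30.8 and 11.3 in KO tumors. Every KO value was far below every WT value of its tissue, and the fall was -2.02 ± 0.24 (adjusted p = 0.00185). Cyp51, which removes a methyl group from lanosterol, went from 76.1, 94.6 and 90.7 to 44.0, 30.2 and 41.9 in liver and from 76.8, 84.1 and 79.1 to 12.4, 19.5 and 19.97 in tumors (-1.67 ± 0.20, adjusted p = 0.00221). Msmo1, the next demethylating enzyme, was 142, 235 and 178 in WT livers, 76.9, 91.9 and 112 in KO livers, 195, 153 and 128 in WT tumors and 26.3, 31.6 and 45.0 in KO tumors (-1.58 ± 0.25, adjusted p = 0.00726). Both genes thus had KO tumors well below KO livers, although WT values in the tissues were alike. Nsdhl, Dhcr7 and Hsd17b7 fell by 1.19, 1.10 and 1.10.

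Not every member had a liver effect. Lss, the lanosterol synthase, was called for the common effect (-1.37 ± 0.38, adjusted p = 0.0455), yet its values in liver overlapped, 10.7, 12.7 and 12.6 in WT and 11.1, 5.77 and 15 in KO. In tumors they were 41.0, 29.5 and 29.3 against 4.89, 3.86 and 6.61, and the effects in the tissues differed by -2.25 (interaction, adjusted p = 0.0278). Its common call was lost in 10 of the 12 fits without 1 library (highest adjusted p = 0.0934). The members without a call included Fdps, with 0.01 in liver and -2.25 in tumors, Fdft1 (-0.14 and -1.56), Sc5d (-0.24 and -1.72), Ebp (-0.37 and -1.17) and Mvd (0.31 and -1.82). Ggps1, which feeds protein prenylation, stood at 0.15 ± 0.13.

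Control of the pathway was described by 15 genes of SREBP regulation and LDL uptake, with a median of -0.21. Of these, 2 fell (13.3%, beside 3.68% of all tested entries). Stard4, which carries cholesterol through the cytosol, had 36, 33.8 and 39.9 FPKM in WT livers, 23.8, 11.8 and 22.1 in KO livers, 38.3, 23.6 and 18.4 in WT tumors and 5.31, 4.76 and 6.84 in KO tumors (-1.48 ± 0.25, adjusted p = 0.00954). Srebf2, the gene of SREBP2, was 16, 18.4 and 13.3 against 9.11, 9.99 and 12.1 in liver and 24.5, 19.4 and 18.2 against 9.32, 13.2 and 11.3 in tumors (-0.70 ± 0.13, adjusted p = 0.0127). Neither gene showed an overlap between KO and WT in either tissue. Of 27 genes of fatty acid and triglyceride synthesis, 1 fell, or 3.70% beside the 3.68% of all tested entries called lower. It was Elovl2, an elongase of polyunsaturated fatty acids (-0.84, limma, adjusted p = 0.048, lost in 9 of 12 fits without 1 library). The median of the list was 0.34 in liver and -0.87 in tumors.

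Genes of the unfolded protein response fell as well, with similar medians in both tissues. The response senses misfolded protein in the endoplasmic reticulum through IRE1, PERK and ATF6 and raises chaperones and degradation factors. Of 27 members tested 17 fell (63.0%, beside 3.68% of all tested entries) and 0 rose. The median was -0.67 against 0.02 over all entries, and it was -0.74 in liver and -0.70 in tumors. Of the 17, 14 were separated in both tissues, beside 63.6% of all called genes. The number of falls was 8 without WT liver 3, 9 without WT liver 1, 11 without WT tumor 2 and 12 to 18 when any other library was left out.

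Among the chaperones, Hspa5 (BiP) had 1294, 1302 and 1713 FPKM in WT livers and 583, 465 and 501 in KO livers, and 501, 824 and 753 in WT tumors and 289, 287 and 291 in KO tumors. The highest KO liver was below the lowest WT liver by a wide margin and the KO tumors nearly coincided, and the fall was -1.35 ± 0.16 (limma, adjusted p = 0.00185). Dnajb9, its partner on misfolded clients, was the member with the smallest p: 105, 104 and 108 in WT livers, 37.6, 39.8 and 34.7 in KO livers, 44.8, 57.1 and 38.1 in WT tumors and 23, 18.5 and 20.2 in KO tumors (-1.30 ± 0.12, adjusted p = 0.000491). Sdf2l1 (-1.34), Hyou1 (-0.98), Hsp90b1 (-0.67), Dnajc3 (-0.58) and Hspa13 (-0.64) fell, as did the disulfide isomerase genes Pdia3 (-0.59), Pdia6 (-0.63) and Pdia4, in an entry shared with a microRNA gene (-0.96). Of these, Sdf2l1 and Pdia4 were called in all 12 fits without 1 library, Dnajc3 in 10, Hyou1 in 7, Hspa13 in 6, Pdia6 in 5, Pdia3 in 4 and Hsp90b1 in 3.

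Genes of the degradation arm and a sensor fell with them. Sel1l, the adaptor of the ubiquitin ligase that clears misfolded proteins, was 56.3, 36.4 and 65.1 in WT livers, 27.0, 24.8 and 27.8 in KO livers, 24, 31.6 and 27.1 in WT tumors and 13.2, 11.9 and 15.6 in KO tumors (-0.95 ± 0.14, adjusted p = 0.00506). Syvn1, the ligase itself, fell by 1.36 and Herpud1, of the same complex, by 1.13, a call that stood in 7 of the 12 fits without 1 library. Ern1, which encodes IRE1, fell by 0.86 in either tissue, and Xbp1, the transcription factor whose RNA IRE1 splices, went from 203, 294 and 272 to 155, 77.8 and 106 in liver and from 173, 188 and 167 to 112, 78.9 and 98.5 in tumors (-1.04 ± 0.18, adjusted p = 0.0097). FPKM of the gene does not tell spliced from unspliced Xbp1. Members without a call were Edem1 (-0.43), Calr (-0.32), Atf6 (-0.31), Derl1 (-0.28), Derl3 (-0.99), Canx (-0.14), Sec61b (-0.02), Atf6b (0.22), Selk (0.24) and Dnajb11 (0.24), the last of which is listed at 0 in WT tumor 1.

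**Figure D2:**
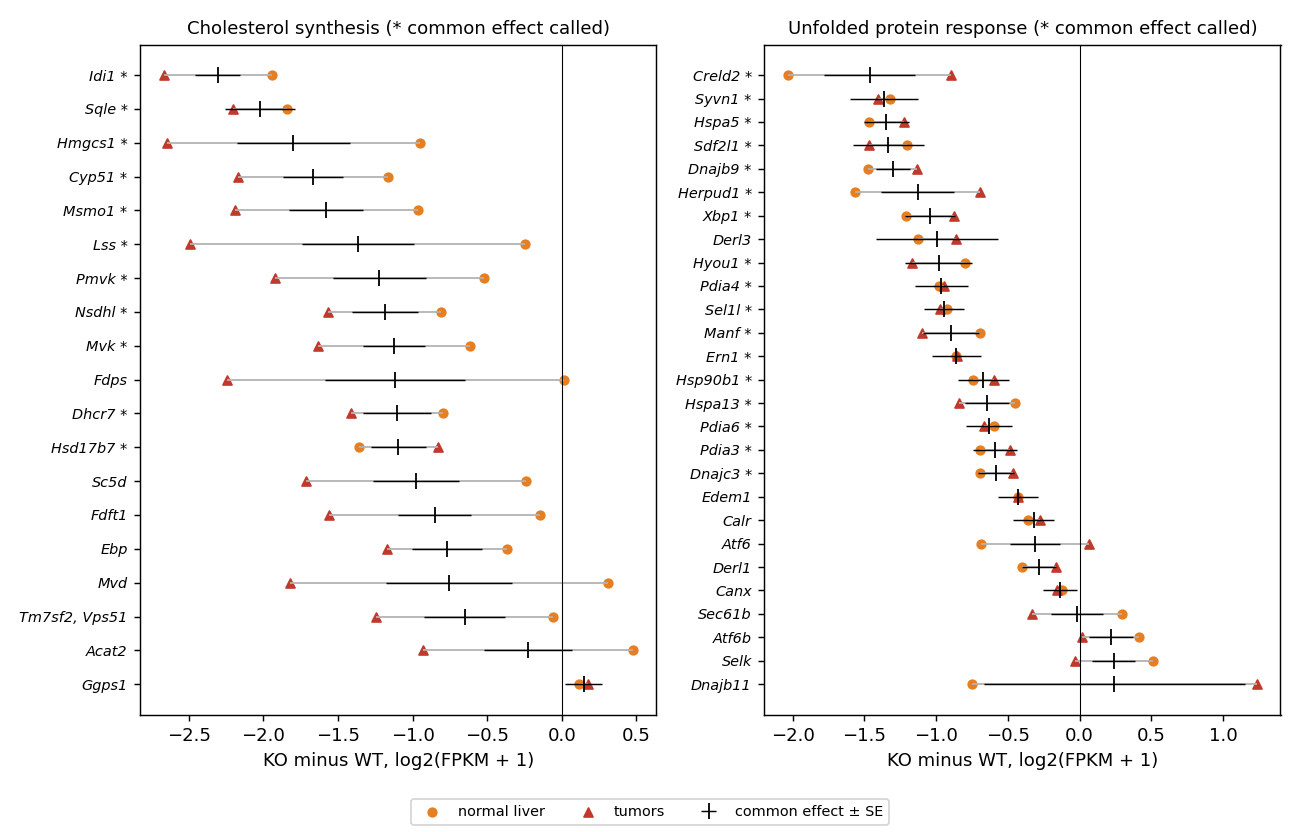
Tested members of the cholesterol synthesis list (left) and the unfolded protein response list (right) is a row, with the KO effect as a difference of log2(FPKM + 1) on the x axis; circles are normal liver, triangles tumors and black ticks the common effect with its SE, and an asterisk marks a called common effect. Most cholesterol genes have the tumor symbol to the left of the liver symbol, as in Idi1 (-2.67 and -1.95), whereas in the unfolded protein response the symbols lie close together, as in Ern1 (-0.86 and -0.86).

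Another chaperone outside these lists, Hsph1 of the cytosolic Hsp110 family, belonged to the 12 largest falls. It had 77.3, 99.4 and 138 FPKM in WT livers, 41.9, 14.2 and 16.3 in KO livers, 12, 46.5 and 32.7 in WT tumors and 10.3, 8.27 and 9.49 in KO tumors, with WT tumor 1 close to the KO tumors (-1.81 ± 0.34, adjusted p = 0.0141).

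The 12 genes with the largest rises among well expressed, separated genes included enzymes of redox and steroid metabolism. G6pdx (chrX:74409483-74429194), the enzyme that opens the pentose phosphate pathway and makes NADPH, had 2.23, 2.86 and 2.24 FPKM in WT livers, 28.4, 12.5 and 28.0 in KO livers, 5.82, 16.3 and 11.8 in WT tumors and 31.0, 53.8 and 25.9 in KO tumors. KO livers were higher than WT tumors 1 and 3, and the rise was 2.19 ± 0.31 (limma, adjusted p = 0.0043), 2.72 in liver and 1.66 in tumors. Hsd17b6 (chr10:127990936-128007611), a hydroxysteroid dehydrogenase, went from 66.1, 55.1 and 35.1 to 228, 285 and 240 in liver and from 59.0, 55.4 and 57.5 to 121, 156 and 159 in tumors (1.80 ± 0.20, adjusted p = 0.00185). Its KO livers lay above its KO tumors. Adh7, an alcohol dehydrogenase that also oxidizes retinol, was 2.91, 2.66 and 4.29 in WT livers, 15.9, 15.3 and 15.9 in KO livers, 2.73, 4.81 and 4.53 in WT tumors and 10.7, 5.38 and 21.3 in KO tumors (1.62 ± 0.27, adjusted p = 0.00953). The KO livers were almost equal, while KO tumor 2 was barely above the highest WT tumor.

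Gsta4, a glutathione transferase that handles products of lipid peroxidation, had 81.7, 63.1 and 59.2 FPKM in WT livers, 116, 146 and 241 in KO livers, 112, 81.4 and 90.3 in WT tumors and 327, 338 and 301 in KO tumors (1.5 ± 0.19, adjusted p = 0.00265). Nqo1, a quinone reductase and a standard readout of the transcription factor NRF2, was 3.04, 3.76 and 4.34 in WT livers, 5.21, 5.46 and 7.28 in KO livers, 13.4, 8.54 and 11.6 in WT tumors and 80.7, 76.4 and 38.7 in KO tumors. It was separated in both tissues and its common effect was 1.48 ± 0.32 (adjusted p = 0.0206), but the effects of 0.56 in liver and 2.39 in tumors differed (interaction 1.83, adjusted p = 0.0402).

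The other largest rises had varied roles. Il3ra, the alpha chain of the interleukin receptor IL3R, had 0.982, 2.49 and 1.29 FPKM in WT livers, 8.15, 4.54 and 7.63 in KO livers, 7.61, 2.73 and 2.45 in WT tumors and 15.4, 11.4 and 19.6 in KO tumors (1.67 ± 0.25, adjusted p = 0.00506). Adora1, the adenosine receptor of type A1, was 2.31, 1.66 and 2.22 against 5.55, 11.7 and 4.66 in liver and 6.6, 2.19 and 2.76 against 11.5, 15 and 9.86 in tumors (1.44 ± 0.24, adjusted p = 0.00953). In both genes WT tumor 1 was the highest WT library. Cnp, a cyclic nucleotide phosphodiesterase best known from myelin, went from 5.80, 5.61 and 4.65 to 14.2, 12.1 and 23.4 in liver and from 5.89, 6.04 and 6.78 to 18.4, 28.5 and 14.0 in tumors (1.46 ± 0.18, adjusted p = 0.00241), with WT values almost equal across the tissues. H1fx, a linker histone, was 0.209, 0.631 and 0.0416 in WT livers, 5.75, 3.08 and 7.40 in KO livers, 2.79, 1.72 and 2.26 in WT tumors and 2.99, 21.7 and 5.16 in KO tumors, so its tumor values were barely apart (1.81 ± 0.38, adjusted p = 0.0183).

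Lgals1, the gene of galectin-1, and Tmsb10, of the actin-binding thymosin family, had their highest value in KO tumor 2. For Lgals1 the values were 39.7, 41.4 and 51.5 in WT livers, 89.3, 96.1 and 75.3 in KO livers, 38.9, 48.7 and 50.2 in WT tumors and 152, 568 and 114 in KO tumors (1.59 ± 0.36, adjusted p = 0.0235). Its call was lost without WT tumor 2 (adjusted p = 0.0537). Tmsb10 was 7.43, 12.6 and 6.58, then 16.2, 12.8 and 19.2 in WT and KO livers, and 16.8, 25.9 and 26.5, then 87.5, 253 and 63.8 in WT and KO tumors (1.54 ± 0.36, adjusted p = 0.0271). WT liver 2 and KO liver 2 nearly met, and the call was lost without KO liver 3 (0.0541), WT liver 1 (0.0525), WT liver 3 (0.0597), WT tumor 2 (0.0606) or WT tumor 3 (0.0533), each an adjusted p.

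Krtcap3 (chr5:31251691-31253202), a keratinocyte-associated membrane protein gene, did not reach the mean of 5 FPKM asked of the largest rises and falls; it was picked with its values known, as 1 of the 2 genes that passed in each tissue. It had 0.164, 0.248 and 0.621 FPKM in WT livers and 4.75, 4.07 and 4.90 in KO livers, and 0.307, 0.586 and 0.994 in WT tumors and 6.57, 7.17 and 5.09 in KO tumors. No WT library reached 1 FPKM and no KO library was below 4, and the effects were 2.06 in liver and 2.17 in tumors (common 2.12 ± 0.13, limma, adjusted p = 1.61e-05).

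**Figure D3:**
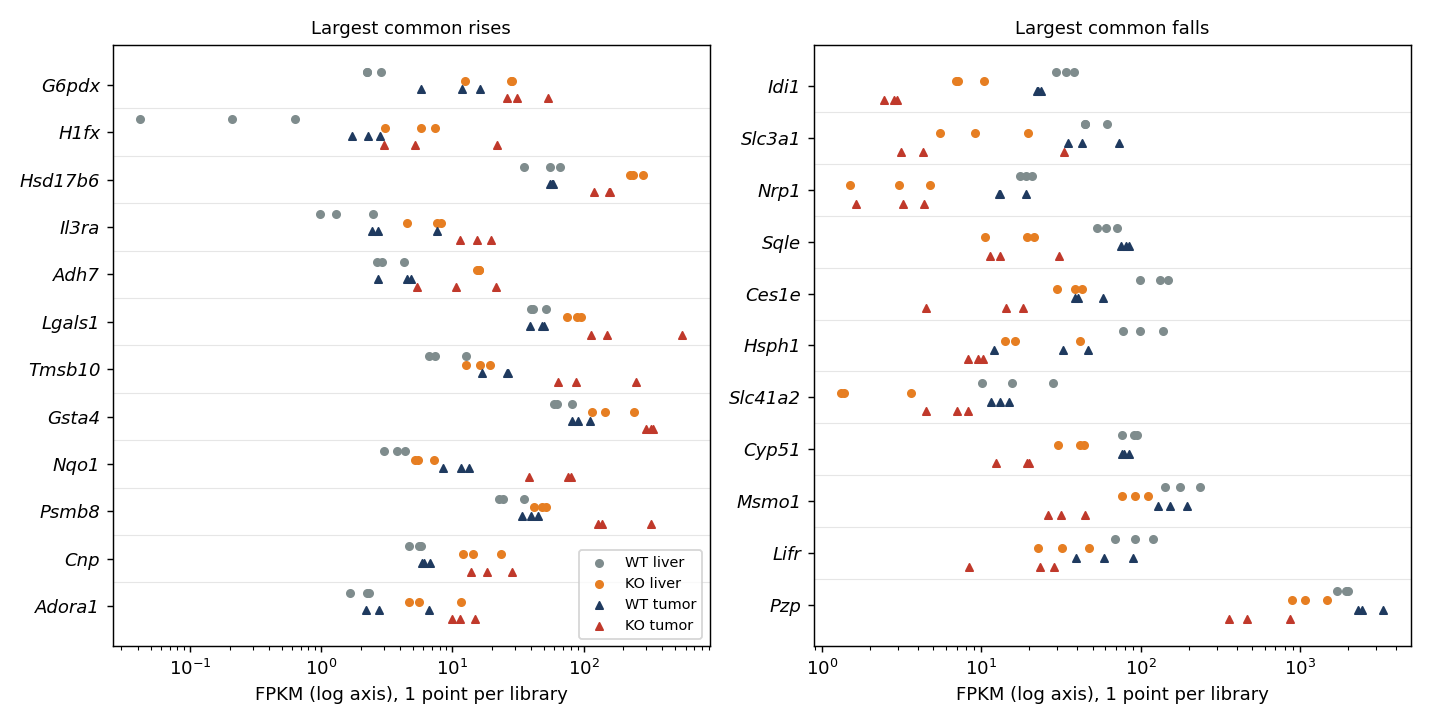
FPKM of genes with the largest common rises (left) and falls (right), with 1 point per library on a log axis and the 4 groups (WT and KO liver, WT and KO tumor, 3 libraries each) side by side. In Nrp1 and Idi1 the KO points lie below all WT points in both tissues by a wide margin, and in G6pdx 2 of the 3 KO livers lie within the range of the KO tumors.

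Largest falls outside sterol synthesis included receptors and transporters of the cell surface. Nrp1 (chr8:128358604-128503363), the co-receptor neuropilin-1 for VEGF and semaphorins, had 19, 17.4 and 20.8 FPKM in WT livers, 3.03, 1.49 and 4.75 in KO livers, 13.1, 19 and 12.8 in WT tumors and 3.21, 1.65 and 4.36 in KO tumors. Values of a genotype were alike across the tissues, and the fall was -2.19 ± 0.22 (limma, adjusted p = 0.000999), with -2.37 in liver and -2.01 in tumors. Endothelial cells also express Nrp1, and the summed FPKM of 17 endothelial markers was 244 to 264 in KO liver, 224 to 255 in WT liver, 192 to 294 in KO tumors and 166 to 259 in WT tumors, overlapping between genotypes in both tissues. Slc3a1, the heavy subunit of the cystine transporter, was 44.6, 44.6 and 61.4 against 19.7, 9.14 and 5.51 in liver and 42.6, 34.8 and 73.0 against 3.13, 33.2 and 4.33 in tumors (-2.30 ± 0.47, adjusted p = 0.0172). KO tumor 2 stood close to the WT tumors there. Lifr, the receptor of leukemia inhibitory factor, was 120, 92.3 and 68.9 in WT livers, 47.3, 32.1 and 22.9 in KO livers, 39.1, 89.5 and 58.7 in WT tumors and 23.4, 8.41 and 28.8 in KO tumors (-1.56 ± 0.30, adjusted p = 0.0149). Slc41a2, a magnesium transporter, went from 10.2, 15.6 and 28.2 to 3.65, 1.37 and 1.32 in liver and from 15, 13.2 and 11.5 to 7.02, 8.28 and 4.51 in tumors (-1.75 ± 0.34, adjusted p = 0.0149).

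Ces1e, a carboxylesterase, had 133, 98.4 and 149 FPKM in WT livers, 38.5, 29.9 and 42.8 in KO livers, 38.9, 40.3 and 58.3 in WT tumors and 4.53, 14.4 and 18.4 in KO tumors, so the KO livers were at the level of the WT tumors (-1.85 ± 0.27, adjusted p = 0.00503). Carboxylesterase genes of this family are near copies, and the authors' counting could split reads among them. Pzp, a secreted protease inhibitor of the macroglobulin family, was 1704, 1994 and 1949 against 1478, 887 and 1078 in liver and 3334, 2439 and 2317 against 359, 467 and 862 in tumors (-1.54 ± 0.32, adjusted p = 0.0183).

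Secreted and identity genes of the hepatocyte fell in part. Among 30 acute phase genes there were 4 falls (13.3%, beside 3.68% of all tested entries) and 0 rises. Of these 4, 3 were the fibrinogen chains, which form the clotting protein of plasma. Fga had 2631, 3764 and 4510 FPKM in WT livers, 1990, 1108 and 1101 in KO livers, 1858, 2335 and 2241 in WT tumors and 770, 1121 and 1011 in KO tumors (-1.28 ± 0.21, limma, adjusted p = 0.00953). Fgb was 4013, 6279 and 7006 against 3394, 1838 and 1649 in liver and 3490, 3822 and 3556 against 1277, 1710 and 1830 in tumors (-1.28 ± 0.23, adjusted p = 0.0115). For all 3 chains KO liver 1 was the highest KO liver and WT liver 1 the lowest WT liver, and KO and WT did not overlap; Fgg fell by 1.10 ± 0.21 (adjusted p = 0.0149). The fourth was Cp, the copper-carrying ferroxidase ceruloplasmin (-0.51, adjusted p = 0.0341), which lost its call in 9 of the 12 fits without 1 library. The list as a whole did not move alike, with a median of -1.03 in liver and 0.15 in tumors.

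Of 30 hepatocyte identity genes 4 fell (13.3%, beside 3.68% of all tested entries) and 0 rose. The median was -0.54, with -0.30 in liver and -0.66 in tumors. The falls were Fga, Fgb and Xbp1, given above with other lists, and Foxa3. Foxa3, a pioneer transcription factor of the liver, was 52.0, 84.5 and 67.2 in WT livers, 43.0, 26.8 and 17.3 in KO livers, 60.9, 51.2 and 50.3 in WT tumors and 36.5, 22.3 and 26.5 in KO tumors (-1.10 ± 0.21, adjusted p = 0.0145). Hnf4a, the nuclear receptor that maintains hepatocyte identity, stood at -0.56 (adjusted p = 0.0677).

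Part of the antioxidant response genes rose, with a larger median effect in tumors than in liver. NRF2 is set free from its inhibitor KEAP1 by oxidants and electrophiles and raises glutathione and quinone enzymes. Of 25 members of the NRF2 and glutathione list 7 rose (28%, beside 4.48% of all tested entries) and 0 fell. The median was 0.47 against 0.02 over all entries, 0.20 in liver and 0.81 in tumors. Without 1 library 4 to 8 rose, with 4 of them without KO liver 3 or WT liver 3. Apart from Gsta4 and Nqo1, an entry that joins Gstm1 and Gstm3 had 1210, 1031 and 1136 FPKM in WT livers, 1810, 1697 and 2376 in KO livers, 1707, 1609 and 1680 in WT tumors and 5749, 7706 and 4619 in KO tumors (1.31 ± 0.23, limma, adjusted p = 0.0106). Gstm4 was 42.9, 46.7 and 52.9 against 102, 79.6 and 132 in liver and 64.3, 46.7 and 59.4 against 102, 260 and 118 in tumors (1.23 ± 0.22, adjusted p = 0.0115). KO tumors of both entries were the highest group. Genes of the glutathione transferase family are near copies, so the values of single members are uncertain.

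In the pentose phosphate pathway 2 of 8 members rose and 1 fell (37.5% called, beside 8.17% of all tested entries), with a median of 0.40. Beside G6pdx, Pgd, which makes the next NADPH, was 22.7, 25.5 and 26.1 in WT livers, 54.3, 26.4 and 109 in KO livers, 33.9, 42.3 and 44.3 in WT tumors and 69.1, 110 and 55.9 in KO tumors (0.998 ± 0.28, adjusted p = 0.0484). KO liver 2 was level with the WT livers, and the call was lost in 9 of the 12 fits without 1 library. H6pd, which carries out these first steps inside the endoplasmic reticulum, fell: 172, 212 and 222 against 111, 80.1 and 86.3 in liver and 109, 135 and 129 against 107, 65.2 and 90.9 in tumors (-0.82 ± 0.17, adjusted p = 0.0174). G6pdx and Pgd thus had the opposite sign of H6pd, and 6 of the 8 members had a positive common effect.

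Of 26 targets of p53 3 rose (11.5%, beside 4.48% of all tested entries) and 0 fell, with a median of 0.27. Phlda3, which restrains the kinase AKT, had 0.433, 0.7 and 0.685 FPKM in WT livers, 4.06, 3.51 and 4.23 in KO livers, 3.98, 4.13 and 2.25 in WT tumors and 6.73, 12.8 and 5.32 in KO tumors (1.31 ± 0.20, adjusted p = 0.00639). WT tumors and KO livers stood at the same level, between low WT livers and high KO tumors. Sesn2 (0.72 ± 0.14, adjusted p = 0.0145) and Plk2 (0.52) were the others, and Plk2 lost its call without KO liver 3 (0.0522), WT liver 3 (0.0554) or WT tumor 2 (0.0521), each an adjusted p. Among 19 genes of ATF4 and the integrated stress response 2 rose and 2 fell (21.1% called, beside 8.17% of all tested entries). Asns, the asparagine synthetase, was 5.51, 12.4 and 3.58 in WT livers, 23.5, 16.2 and 17.8 in KO livers, 11, 33.8 and 11.7 in WT tumors and 37.3, 65.8 and 30.3 in KO tumors, overlapping in tumors through WT tumor 2 (1.37 ± 0.32, adjusted p = 0.0272, lost in 7 of 12 fits without 1 library). Eif2ak3, the gene of the sensor kinase PERK, fell by 0.64 (adjusted p = 0.0149).

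Part of the interferon-stimulated genes and of the class I antigen pathway rose, with larger medians in tumors. Interferons act through STAT factors and IRF7 to raise antiviral enzymes and, with them, the immunoproteasome and peptide transporters that load MHC class I molecules. The median of 37 interferon response genes was 0.48, 0.11 in liver and 0.84 in tumors. Of them 7 rose (18.9%, beside 4.48% of all tested entries) and 0 fell. The number was 4 without KO liver 1, KO tumor 2, WT liver 1, WT liver 3, WT tumor 1 or WT tumor 2, and 5 to 10 without any other library. Oasl1, of the oligoadenylate synthetase family, had 6.20, 5.72 and 3.86 FPKM in WT livers, 13.3, 7.65 and 20.03 in KO livers, 6.37, 7.12 and 8.07 in WT tumors and 16.7, 30.1 and 27.6 in KO tumors (1.39 ± 0.22, limma, adjusted p = 0.00787). Irf7 was 18.1, 29.4 and 15.5 against 41.4, 25.7 and 29.0 in liver, where the genotypes overlapped, and 24.7, 24.5 and 21.3 against 64.7, 86.1 and 130 in tumors (1.25 ± 0.27, adjusted p = 0.0196). Usp18, which removes ISG15 from proteins, was 2.00, 3.50 and 1.78 against 11.8, 8.68 and 4.2 in liver and 10.6, 6.41 and 4.17 against 15.9, 11 and 22.7 in tumors, in each tissue without overlap (1.25 ± 0.26, adjusted p = 0.0184).

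The median of 16 genes of the class I pathway was 0.58, 0.15 in liver and 0.88 in tumors. Of them 6 rose (37.5%, beside 4.48% of all tested entries) and 0 fell. Leaving out WT tumor 2 left 3 of these calls, leaving out KO liver 1, KO liver 3, WT liver 1, WT liver 3 or WT tumor 3 left 4, and the other fits had 5 or 6. Psmb8 (chr17:34197721-34201454), a catalytic subunit of the immunoproteasome, had 24.5, 35.2 and 22.7 FPKM in WT livers, 48.5, 41.6 and 51.5 in KO livers, 33.8, 45.1 and 39.6 in WT tumors and 139, 326 and 129 in KO tumors (1.47 ± 0.29, adjusted p = 0.0159). Its neighbour Psmb9 was 14.4, 18.2 and 13.5 against 35.1, 23.5 and 36.9 in liver and 27.5, 22.5 and 26.1 against 63.5, 212 and 61.4 in tumors (1.42 ± 0.30, adjusted p = 0.0183). In both subunits KO tumor 2 was the highest library. Tap1, of the peptide transporter, rose by 0.89 ± 0.20 (adjusted p = 0.0222), with 0.0523 to 0.0535 as adjusted p without KO liver 3, WT liver 3 or WT tumor 2. H2-T23, a nonclassical class I gene, rose by 0.63 ± 0.13 (adjusted p = 0.0166).

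Summed macrophage markers and class II genes were higher in KO tumors than in WT tumors, and KO tumor 2 had the highest sums. The summed FPKM of 23 macrophage and Kupffer cell markers was 329 to 470 in KO liver, 354 to 538 in WT liver, 807 to 1051 in KO tumors and 228 to 636 in WT tumors, so the genotypes overlapped in liver and were apart in tumors. Its median effect was 0.61, -0.10 in liver and 1.17 in tumors, and 0 of the 23 were called, none of them listed at 0 in any library. For 6 class II genes of antigen-presenting cells the sum was 160 to 192 in KO liver and 78.1 to 192 in WT liver. In tumors it was 448 to 2322 in KO and 317 to 426 in WT. Of the 6 genes 1, H2-DMb1, rose (16.7%, beside 4.48% of all tested entries). Its effect was 1.04 (limma, adjusted p = 0.044). The call was lost in 10 of the 12 fits without 1 library, that without KO tumor 2 among them. The part of these cells in the interferon and class I results was not tested.

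Genes of the extracellular matrix rose in small number, with a larger median in tumors. Of 28 matrix genes 4 rose (14.3%, beside 4.48% of all tested entries) and 0 fell. The median was 0.76, 0.18 in liver and 1.43 in tumors. The summed FPKM of 27 of the 28 was 547 to 660 in KO liver and 680 to 820 in WT liver. In tumors it was 1063 to 5030 in KO and 787 to 1410 in WT. The sum left out 1 member listed at 0 in a WT liver, and KO tumor 2 was the highest. In liver the sum was lower in KO than in WT without overlap, while in tumors the genotypes overlapped. The fit of liver alone called 2 members higher and 4 lower. Without KO liver 2, KO liver 3, WT liver 1, WT liver 3 or any of the WT tumors, only 1 of the common calls was left. Without KO tumor 2 there were 2. Col14a1, a collagen that decorates fibrils, was the member with the smallest p, at 4.26, 5.24 and 3.08 FPKM in WT livers, 5.87, 9.37 and 9.40 in KO livers, 7.74, 6.16 and 6.70 in WT tumors and 10.01, 10.9 and 16 in KO tumors (0.78 ± 0.15, limma, adjusted p = 0.0162). It was separated in both tissues. Bgn (0.97), Col3a1 (1.31) and Col1a2 (1.46) were the others, and their calls were lost in 7, 8 and 10 of the 12 fits without 1 library. Col1a2 overlapped in liver, where WT had 1.98, 3.86 and 1.96 and KO 3.40, 3.23 and 4.51, and was apart in tumors, with 5.92, 7.70 and 5.15 against 37.4, 75.6 and 21.9.

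Markers of stellate cells and fibroblasts had the same median in liver (0.62) as in tumors (0.56) to within 0.1. Of 13 tested 3 rose (23.1%, beside 4.48% of all tested entries). Des, the intermediate filament of muscle-like cells, rose by 0.65 (limma, adjusted p = 0.0407). Cygb, a globin of quiescent stellate cells, rose by 0.95 (adjusted p = 0.0453), and Rgs5, a pericyte gene, by 1.31 (adjusted p = 0.0486). All 3 lay close to the threshold, and 0 calls were left in 9 of the 12 fits without 1 library. The summed FPKM was 153 to 267 in KO liver, 95.1 to 144 in WT liver, 148 to 353 in KO tumors and 122 to 137 in WT tumors, higher in KO without overlap in both tissues. Of 13 cholangiocyte and progenitor markers 2 rose (15.4%, beside 4.48% of all tested entries). They were Cd24a (1.26, limma, adjusted p = 0.0486) and St14 (0.95, adjusted p = 0.0373). Of 26 fetal and liver tumor markers 2 rose (7.69%), 1 of them Golm1, a Golgi protein (1.17, limma, adjusted p = 0.033). Without 1 library, Cd24a and Golm1 each lost their call in 9 of 12 fits and St14 in 8.

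Other programs had a common effect in few members, with 0 or 1 called in either direction beside 4.48% up and 3.68% down of all tested entries. The single genes named here say nothing about their lists. Of 28 cell cycle genes 0 were called, as of 35 genes of oxidative phosphorylation, 39 cytosolic ribosomal proteins, 19 clock genes, 20 immediate early genes, 22 lipoprotein genes and 20 urea cycle and periportal genes. Immediate early genes had opposite medians, -0.96 in liver and 0.57 in tumors. Male-biased liver genes had medians of 0.22 in liver and -1.48 in tumors, with 1 rise, an entry that joins Gstp1 and Gstp2 (0.78, adjusted p = 0.0227), and 1 fall, the complement gene C8b (-1.49, adjusted p = 0.0299), among 25. In 16 genes of the growth hormone and IGF axis Bcl6, a repressor of female-biased genes, fell (-1.46, adjusted p = 0.0183). In lipid use, Cd36, the fatty acid translocase, rose by 0.89 (adjusted p = 0.0183), 1 of 24 genes of lipid droplets and uptake, and Ppara, the nuclear receptor of fatty acid catabolism, fell by 0.85 (adjusted p = 0.0494), 1 of 29. Without 1 library, Ppara lost its call in 9 of 12 fits, C8b in 6 and the Gstp entry in 3 (without KO liver 3, WT liver 1 or WT liver 3), while Cd36 and Bcl6 were called in all 12.

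**Figure D4:**
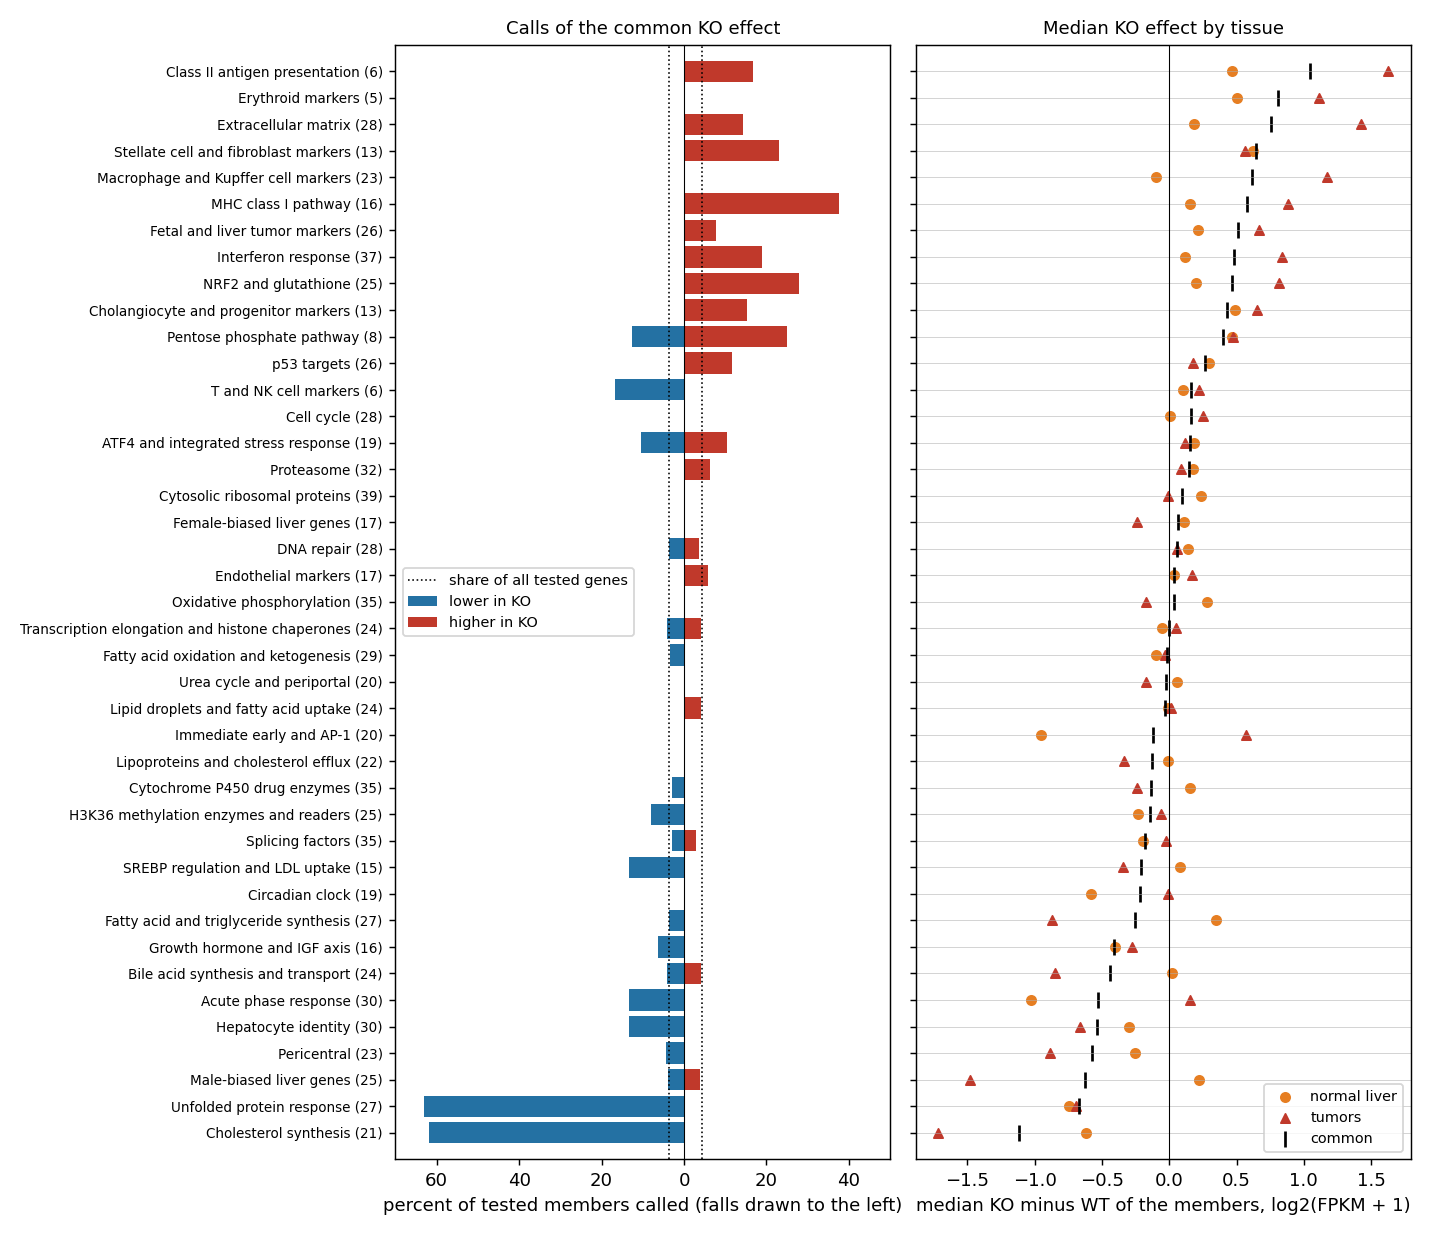
For each gene list with 5 or more tested members (their number in brackets) the left panel shows the percent of members with a called common effect, rises to the right and falls to the left, with dotted lines at the shares of all tested entries (4.48% and 3.68%). The right panel shows the median effect in liver, in tumors and in common as a difference of log2(FPKM + 1); cholesterol synthesis (13 of 21) and the unfolded protein response (17 of 27) extend furthest to the left, and the class I pathway (6 of 16) furthest to the right.

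Few genes tied to the mark itself were called. Among 25 enzymes and readers of H3K36 methylation 2 were called, both lower in KO, and Setd2, the targeted gene, is 1 of the 2. The other is Whsc1l1 (NSD3), which places the lower methylation states of the same lysine, with 18.4, 18.5 and 21.6 FPKM in WT livers, 11, 9.69 and 9.85 in KO livers, 9.02, 16.1 and 11.3 in WT tumors and 7.53, 5.40 and 8.06 in KO tumors (-0.79 ± 0.14, limma, adjusted p = 0.0109). Ash1l (-0.42, adjusted p = 0.0816) and Whsc1 (-0.32, adjusted p = 0.083) did not pass. Of 24 genes of transcription elongation Ell2 fell (-1.06, adjusted p = 0.0168) and Ctr9, a subunit of the PAF complex, rose (0.60, adjusted p = 0.0202). Among 35 splicing factors Hnrnpl, which is known to bind SETD2, rose (0.48, adjusted p = 0.0291) and Hnrnpa2b1 fell (-0.45, adjusted p = 0.0374). Among 28 genes of DNA repair Ddb1 rose (0.69, adjusted p = 0.0219) and Lig3 fell (-0.55, adjusted p = 0.0326). Ell2 and Ctr9 were called in all 12 fits without 1 library, whereas Hnrnpl lost its call in 7, Hnrnpa2b1 in 10, Lig3 in 10 and Ddb1 in 2 (without KO liver 3 or WT liver 3). The shares of these 4 lists are at or near the background of 8.17%.

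The effects in liver and tumor were tested against each other over all entries, and 243 differed (2.08%), a count that ran from 7 without WT liver 2 to 1368 without KO tumor 3. Of the 953 called genes, 183 had an unadjusted p below 0.05 for this difference and 12 an adjusted one. Prss8, a membrane protease known as prostasin, had the largest difference among well expressed rises: 1.75, 1.23 and 0.996 FPKM in WT livers, 25.3, 16.4 and 25.9 in KO livers, and overlapping tumors with 11.5, 7.47 and 6.83 in WT and 10.4, 10.6 and 16 in KO. Its common effect of 1.90 ± 0.44 (limma, adjusted p = 0.0267) is an average of 3.32 and 0.48, which differed by -2.85 (adjusted p = 0.012). Without KO liver 1, 2 or 3 or WT liver 1 or 3 the common effect was not called (adjusted p = 0.0519 to 0.0638). Slc10a2, a bile acid transporter, was 35.7, 40.0 and 75.8 against 9.79, 3.76 and 1.70 in liver and 7.74, 16.2 and 20.5 against 9.69, 5.57 and 5.79 in tumors, where the groups overlapped (-2.08 ± 0.47, adjusted p = 0.0246, and 0.0527 to 0.0567 without KO liver 2, WT liver 1 or WT liver 3). Ucp2, a mitochondrial carrier, went the other way, with 21.9, 32.0 and 22.4 against 72.3, 25.5 and 48.0 in liver, where they overlapped, and 34.1, 30.8 and 20.9 against 155, 375 and 122 in tumors (1.77 ± 0.40, adjusted p = 0.025, and 0.0582 or 0.0517 without WT tumor 2 or 3). The differences between tissues were 2.31 for Slc10a2 (adjusted p = 0.0918) and 1.92 for Ucp2 (adjusted p = 0.105).

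The share of calls near the targeted gene was close to that of all entries. Of 104 placed entries within 5 Mb of Setd2, 5 were higher and 5 lower in KO (9.62%), against 8.24% of all 10843 placed entries, and within 20 Mb the share was 8.33%. Other chromosomes had uneven directions. On chromosome 17, 55 of 558 placed entries were higher in KO (9.86%) and 11 lower (1.97%), and the bin from 30 to 40 Mb, which holds the MHC, had 20 rises and 4 falls among 147. Psmb8, Psmb9, Tap1, H2-DMb1 and H2-T23 are among these 20, as are Ltb, a lymphotoxin (1.51), and Clic1, a chloride channel protein (0.98), which were chosen after their values were seen. The share of rises in this bin, 13.6%, was not particular to it. Other bins of chromosome 17 had 14.7% (70 to 80 Mb), 14.0% (80 to 90 Mb) and 13.2% (40 to 50 Mb). Lower shares were 7.30% (20 to 30 Mb), 7.27% (50 to 60 Mb) and 0% (10 to 20 Mb). Chromosome 12 had the opposite pattern, with 4 of 365 higher (1.10%) and 33 lower (9.04%). Neighbouring genes were not tested as a group.

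The direction of the calls also followed the length of the transcript. Placed entries were divided by transcript length into 5 groups of equal number. In the group with the shortest transcripts 8.48% were called higher and 1.38% lower, and in that with the longest 1.80% and 5.67%. Spearman's rho between the length of the longest transcript and the common effect was -0.25 across genes, -0.34 for the effect in liver and -0.05 in tumors. When each library's trend with length was removed, 823 genes were called, 380 higher and 443 lower, and 690 of them were among the 927 called on the same placed entries with the same sign. Of the genes with the largest rises, Lgals1 (adjusted p = 0.0507) and Tmsb10 (adjusted p = 0.059) lost their call.

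**Figure D5:**
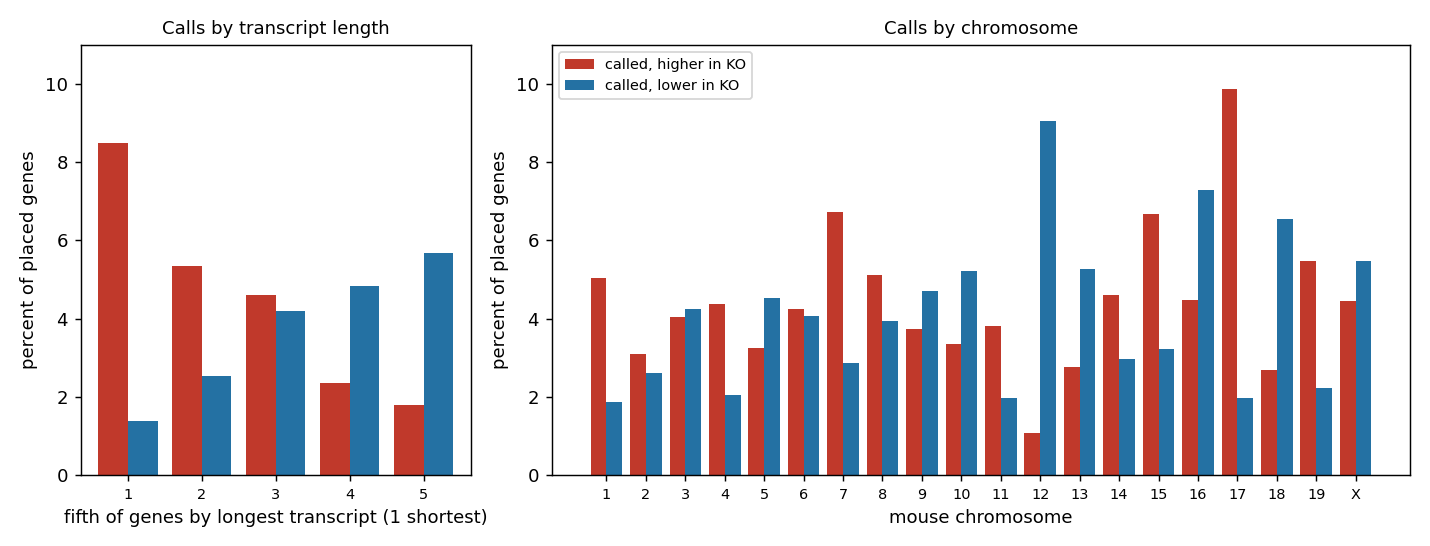
Percent of placed entries called higher (red) or lower (blue) in KO, by 5 groups of transcript length (left) and by chromosome (right). The share of rises drops from 8.48% in the shortest group to 1.80% in the longest while that of falls grows from 1.38% to 5.67%, and chromosomes 17 and 12 stand out in opposite directions.

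Of the 953 genes called in the fit of all 12 libraries, 325 were called in each of the 12 fits without 1 library, 180 higher and 145 lower. In this set 283 were separated in both tissues, beside 606 of the 953, and 113 changed at least 2-fold, beside 183 of the 953. The set held 11 of the 13 called cholesterol genes, 8 of the 17 of the unfolded protein response and 4 of the 7 of the NRF2 list. Likewise it held 4 of the 7 of the interferon list, 3 of the 6 of the class I pathway and 3 of the 4 of the acute phase list. These counts stand beside 325 of 953 for all called genes. Of the 4 matrix genes 1 was in the set, and of the 3 stellate cell markers 0. These fits share most of their libraries and are no independent repeats.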

How the data were processed

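RNA was measured in 12 mouse liver libraries in 4 groups of 3. Polyadenylated RNA was selected and the library kit does not keep strand, per the labels' protocols, so overlapping genes cannot be told apart. The authors deposited 1 table of FPKM values per library, made with TopHat2 2.1.1 and Cufflinks 2.2.1 on mm10, per the submitters' processing notes; neither options nor annotation is given in the sources used here. No file holds read totals. The depth is therefore unknown, and steps between values below 0.1 FPKM did not recover it (at most 2.47% of a library's low values shared a ratio).

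From these values log2(FPKM + 1) was computed for the 11671 entries that reached 1 FPKM in 3 or more libraries. Repeated names were kept as entries of their own. limma 3.58.1 in R 4.3.3, with a variance trend, fitted genotype with tissue as a covariate (the common effect), a model of the 4 group means (the effect in each tissue, their difference, and the larger p of both tissues), and each tissue on its own 6 libraries. P-values are two-sided and adjusted by the Benjamini-Hochberg method over all entries. The fits were also run on simulated data in which a gene had the same SD in all groups. The measured KO tumors varied more than the other groups (median SD of 0.31 against 0.16 to 0.19), and no result here rests on the simulation. Python 3.11.15 was used for tables and figures.

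The comparison, the 45 gene lists and the rule for named genes were chosen with earlier results of these data known, so no list is independent evidence of its direction. The rule took Setd2; up to 12 rises and 12 falls, the largest, among called genes that were separated in both tissues and had a mean of 5 FPKM or more in the higher genotype of both tissues; up to 4 each way with the largest difference between tissues; and up to 4 members of each list with the smallest adjusted p. Unnamed models, small RNAs and joined entries outside lists were left out. A few genes are not reported here by name, whatever their values, but every count and median includes them. Further list members are given in summaries of a list. Positions are from GENCODE on GRCm38 (the assembly that mm10 names), matched by name for 10843 of the 11671 entries (92.9%); promoters are from RefSeq on GRCm38.p6. Alternatives were other pseudocounts, filters and scalings, array weights, no variance trend, the interaction term kept, a replicate block, removal of length trends, improbable zeros as missing, single names, and leaving out each library.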

Additional observations from a re-analysis of the deposited data

Results flagged for a closer look

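For 4 genes given here the KO effect differed between tumors and liver by the interaction test of limma over all entries, given as tumor minus liver on the log2(FPKM + 1) scale. Prss8 differed by -2.85 (adjusted p = 0.012), Lss by -2.25 (adjusted p = 0.0278) and Nqo1 by 1.83 (adjusted p = 0.0402), with the values given above. Ier3, an immediate early gene, differed by 3.37 (adjusted p = 0.00253): it had 3.52, 2.35 and 3.30 FPKM in WT livers, 2.22, 1.15 and 1.52 in KO livers, 3.03, 2.60 and 3.33 in WT tumors and 35.2, 21.3 and 22.1 in KO tumors. Every KO liver lay below every WT liver and every KO tumor above every WT tumor, and the common effect of 1.05 had an adjusted p of 0.196.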

How the results depend on the processing

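Setd2 was called in the 24 alternatives that tested it, from -1.07 to -0.40 with a highest adjusted p of 0.0347 (limma). No called gene taken by the rule for named genes changed sign. Other genes given here were not followed through all alternatives. The medians of 16 of 41 lists changed sign in at least 1 alternative. The 953 calls became 1677 with the interaction term kept, 2325 with array weights and 628 after rescaling to a common sum (TPM, 529 shared); with 1 library left out they ranged from 377 to 1774. Separation in both tissues gave 713 entries under TPM, 555 with KO above and 158 below, against 439 and 397. The 2 genes called in both tissues became 1 with a mean FPKM of 5 or more, 4 under TPM and 0 with each tissue fitted alone, and 2 to 6 without 1 library. The 243 interaction calls became 56 without a filter, 133 with a mean FPKM of 5 or more, 120 under TPM, 608 with array weights and 7 to 1368 without 1 library. In 1 fit of all 12 libraries the 2113 liver calls became 1144 and the 9 tumor calls 1017; without 1 library they were 240 to 1964 and 0 to 266. Deviations of same-numbered libraries from their group means had r from -0.276 to 0.347 over 18 pairs, 3 above 0.1. The highest was that of KO tumor 1 and WT tumor 1. With 3 libraries per group, these correlations cannot decide whether the replicate number pairs samples. With the replicate block 655 genes were called for the common effect (624 shared), 114 for the interaction, 153 in liver and 0 in tumors. The cause of these shifts was not tested. Depth is unknown, so low values carry a counting error that cannot be given, and some abundant genes are listed at or near 0: Alb at 0 in 11 of 12 libraries and Gapdh at no more than 1.34 FPKM. Neither was tested, but library sums and TPM rescaling use the values as listed. Setting 9 improbable zeros of tested entries to missing gave 954 calls.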

Other observations

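Of the 325 genes called in every fit, many lie outside the lists, and those below were chosen after their values were seen, by their small p. Tfrc, the transferrin receptor, rose by 1.15 (1.07 in liver and 1.22 in tumors) and Slc2a1, the glucose transporter GLUT1, by 0.95, whereas Slc23a1, a transporter of vitamin C, fell by 1.08 (-1.03 and -1.12) and Abca8b, an ABC transporter, by 0.99. Further rises were Mgst3, a microsomal glutathione transferase (1.40), Ggh, which trims folate polyglutamates (1.25), Cul7, a ubiquitin ligase scaffold (1.21), Pam, which amidates peptides (1.15), Tgfbi, a matrix protein (1.04), and Blvrb, a biliverdin reductase (0.91). Aox3, an aldehyde oxidase (-1.19), Erlin1, of endoplasmic reticulum membranes (-0.91), and Ece2, an endothelin-converting enzyme (-0.88), fell. No list was tested for them.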
